A study of Homo sapiens with 6 samples.

Results

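The clustered protocadherins are 53 protein-coding genes of human chromosome 5 whose symbols begin with PCDHA, PCDHB or PCDHG, out of 20033 protein-coding genes in the GENCODE annotation of hg38. They form the alpha cluster with 15 genes at chr5:140786136-141012347, the beta cluster with 16 genes at chr5:141051374-141249365 and the gamma cluster with 22 genes at chr5:141330514-141512977. Members were chosen by symbol alone. Their chromatin accessibility was described from ATAC-seq, in which the Tn5 transposase cuts and tags open DNA, in neural progenitor cells (NPCs) made from H1, an established human embryonic stem cell line, by dual SMAD inhibition with SB431542 and dorsomorphin. The 6 samples form 3 groups of 2 replicates. WT NPCs carried no edit. The dKO NPCs carried deletions of the catalytic domain of UTX, encoded by KDM6A, and of JMJD3, encoded by KDM6B. The study made both deletions in turn by CRISPR/Cas9 with a selection cassette, so they come from an edited stem cell line that had been cloned. The third group, labelled dKO-NPC-BAF53B, was dKO NPCs to which the study added BAF53B, the neuronal BAF subunit encoded by ACTL6B, by lentivirus. H1, the neural induction and the assay were shared by all 3 groups, and the double deletion was shared by the last 2. WT and dKO NPCs are labelled NPC2, and the study describes them as passage 2. The passage of the NPCs with BAF53B is not given in the sources used here. Their labels say NPC, whereas the study describes its ATAC-seq with BAF53B as coming from differentiated cells, so their stage is not settled here. The labels name no control virus for WT or dKO NPCs, and the part of stage or transduction in the values was not tested.

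A clustered protocadherin is a cell-surface adhesion protein that binds an identical protein on another cell, and the combination of isoforms that a neuron makes gives it an identity of its own. In the alpha and gamma clusters a row of variable first exons, each with its own promoter, is spliced to a shared set of constant exons. Beta genes consist of a single coding exon and have no constant exons. Most of the promoters, here called alternate, are chosen stochastically in single neurons, by looping through CTCF and cohesin to enhancers. The C-type promoters (PCDHAC1, PCDHAC2, PCDHGC3, PCDHGC4 and PCDHGC5), which lie last in the alpha and gamma rows, are used more uniformly. UTX and JMJD3 remove methyl groups from lysine 27 of histone H3, a mark of repressed chromatin.

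Each group had 1 deposited peak list that both replicates share, so no value has a replicate error, no test between groups was possible, and a difference between lists describes these pooled libraries only. The lists held 7880 peaks in WT, 25439 in dKO and 16948 with BAF53B. Depth was read from the genome-wide background, in fragments covering a base, at 6.33, 6.81 and 6.78. The height of a peak is given as the number of fragments covering its summit (pileup), with an exact Poisson 95% interval, and as the deposited fold over local background. The unit is called a fragment here, but whether MACS2 counted fragments, single reads or cut sites is not given in the sources used. If it counted a fragment more than once, the Poisson intervals are too narrow. Poisson intervals of pileups and Wilson 95% intervals of shares cover counting error only. An overlap of intervals is reported as such and does not show that the values are alike. Called peaks had at least 25 fragments in the WT and dKO lists and at least 26 in the BAF53B list. Sites below the authors' threshold were not analysed here, so a promoter without a peak is one that was not called at this depth.

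The cell identity named by the labels was compared with promoter peaks of marker genes. Of 10 neural progenitor markers, 2 were called in the WT list (HES1 and VIM), 7 in the dKO list and 6 in the BAF53B list. The promoters of SOX1 and SOX2 had none in WT and had one in dKO, and that of NES had none in any list. Of 6 pluripotency markers 0, 2 and 0 had a peak, of 5 neuronal markers 1, 3 and 2, and of 6 mesenchymal markers 0, 2 and 1. Of all protein-coding genes 27.9, 56 and 44.5% had a promoter peak in WT, dKO and BAF53B. The Wilson 95% intervals of the progenitor and neuronal shares included these values. So did those of the pluripotency and mesenchymal shares, apart from the pluripotency markers with BAF53B (0 of 6, upper bound 39%). Over all protein-coding genes, 5709 promoters were called in the dKO list without WT and 75 in the WT list without dKO, and the lists were used as labelled. The part of these markers in the values of the protocadherins was not tested. KDM6B and ACTL6B had a promoter peak in all 3 lists and KDM6A in the 2 dKO lists. The KDM6A and KDM6B peaks do not check the deletions, because these promoters lie outside the deleted catalytic domains. ACTL6B was not deleted.

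The promoters of the clusters share short sequence elements that set the alternate and beta genes apart from most other genes, and the elements are shown here because called peaks are read against them. Windows ran from 250 bases before the transcription start site (TSS) to 50 bases from it, in hg38. The letters GTGGCGCT, read on both strands, were held by 14 of 16 beta promoters and by 1.58% of all protein-coding promoters. The letters GNCGCTGT were held by 6 of 13 alternate alpha promoters, 16 of 19 alternate gamma promoters, 1 of 16 beta promoters and 2 of 5 C-type promoters, against 5.64% of all. Both were picked because they recur in these promoters, so the shares are a description. Both hold the letters CGCT, the core of the conserved element known from the promoters of these clusters. In the members every match lay on the strand of the gene. With the element in capitals, 30-base windows of 7 members with a peak and, for comparison, of 3 without one (PCDHA3, PCDHB3 and PCDHGA3) read as follows in hg38.
PCDHA2, chr5:140794783-140794812: tagccacatgatGTCGCTGTccaccataga
PCDHA6, chr5:140827899-140827928: gagccgcatgatGTCGCTGTctaccatgaa
PCDHA3, chr5:140800996-140801025: tagccacatgatGTCGCTGTccaccacaag
PCDHB2, chr5:141094544-141094573: aagagacgcgggGTGGCGCTgcagccttag
PCDHB5, chr5:141135179-141135208: ttaggacgcctgGTGGCGCTgcaggctaag
PCDHB15, chr5:141245314-141245343: agacaacgcatgGTGGCGCTgcaggctaag
PCDHB3, chr5:141100393-141100422: agcgaacgcatgGTGGCGCTgttgactaag
PCDHGC3, chr5:141475882-141475911: gggactctgtgtGCCGCTGTcggccaatga
PCDHGC4, chr5:141484954-141484983: ctgagcccgggaGCCGCTGTctgccaatcg
PCDHGA3, chr5:141343769-141343798: aggcctcttagtGTCGCTGTtgaccactca

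The beta element began 85 to 1 bases before the TSS (median 65.5, 14 promoters) and 264 to 231 bases before the start codon. The alpha and gamma element began between 97 bases before and 33 bases after the TSS (24 promoters, with a median of 49.5 bases before it). Of the 10 members with a promoter peak in at least 1 list, 7 held 1 of the elements (70%), and of the 43 without a peak 31 did (72.1%). These shares were close to each other. The 3 members with a peak and no exact match in their window were PCDHA12, PCDHAC1 and PCDHAC2. Only exact letters were counted in these shares and in those of the alternate alpha promoters. The PCDHA12 window held GTCGCTCT, 1 base from the element. Among alternate alpha genes without a peak, PCDHA4, PCDHA7, PCDHA11 and PCDHA13 held the same letters and PCDHA5 held GTCGCTGG, also 1 base from it.

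**Figure D1:**
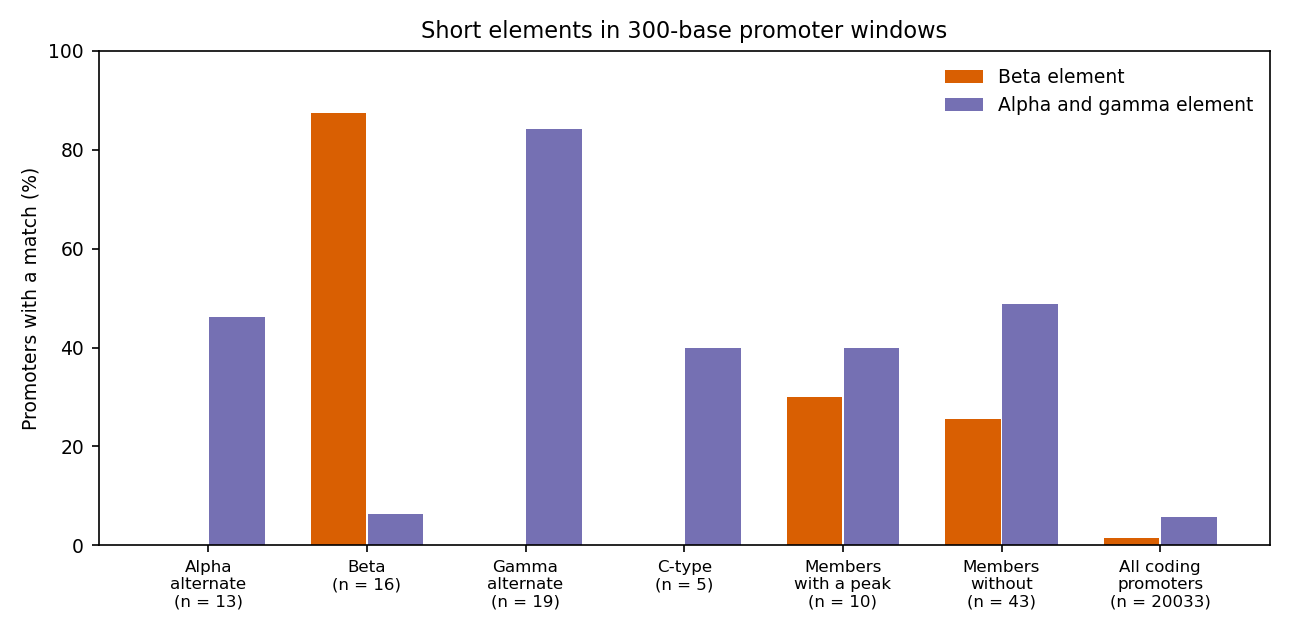
Share of promoters (%, vertical axis) with a match to the beta element or to the alpha and gamma element, by promoter group, with the number of promoters under each group. The beta element was held by 87.5% of beta promoters and the alpha and gamma element by 84.2% of alternate gamma promoters. Members with and without a called peak held the beta element in 30 and 25.6% of cases and the alpha and gamma element in 40 and 48.8%.

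Accessibility was called at the promoters of few members. A peak within 1 kb of the TSS was present for 2 of 53 members in WT (3.77%, Wilson 95% interval 1.04 to 12.8%), where 27.9% of all protein-coding genes had one. In dKO 9 members had a peak (17%, 9.2 to 29.2%), against 56% of all genes. With BAF53B 4 members had one (7.55%, 2.97 to 17.9%), against 44.5% of all genes. In each list the upper bound for the members lay below the share of all genes. At least 1 list had a peak for 10 members (18.9%), against 58% of all genes. In bulk libraries fewer cells with an open promoter and less accessibility per cell cannot be told apart.

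Peaks called in dKO and not in WT were found at 7 members (13.2%, 6.55 to 24.8%), namely PCDHA2, PCDHA6, PCDHAC2, PCDHB5, PCDHB15, PCDHGC3 and PCDHGC4. Over all genes the share was 28.5%. No member had a peak in WT and not in dKO, a class that held 0.374% of all genes (0 of 53 has an upper Wilson bound of 6.76%). Peaks called in dKO and not with BAF53B were found at 6 members (11.3%, against 13.3% of all genes). Taken over genes with a peak in dKO, these were 6 of 9 members (66.7%, 35.4 to 87.9%), against 23.8% of 11214 genes. The 6 had 26 to 38 fragments in dKO and the other 3 had 37 to 52, where the median of all dKO promoter peaks was 54, and the part of peak height in this share was not tested. With BAF53B and not in WT, 2 members had a peak, PCDHA12 and PCDHGC4 (3.77%, against 17.9%). For dKO without WT and for BAF53B without WT the upper bound over all members, 24.8 and 12.8%, lay below the share of all genes.

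The lists differ in length, so the shares were also taken at equal length. When only the 7880 most significant peaks of every list were kept, 2 members remained in WT, 1 in dKO and 1 with BAF53B, where 27.9, 33.2 and 31% of all genes had a peak. The member called in dKO and with BAF53B was then PCDHAC1 alone. Among genes with a peak in dKO, 0 of 1 member then lacked one with BAF53B, against 22.4% of 6652 genes. No member had a peak in dKO and not in WT (9.39% of all genes did), and PCDHB2 had one in WT and not in dKO (1.89% of the members, against 4.04% of all genes).

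**Figure D2:**
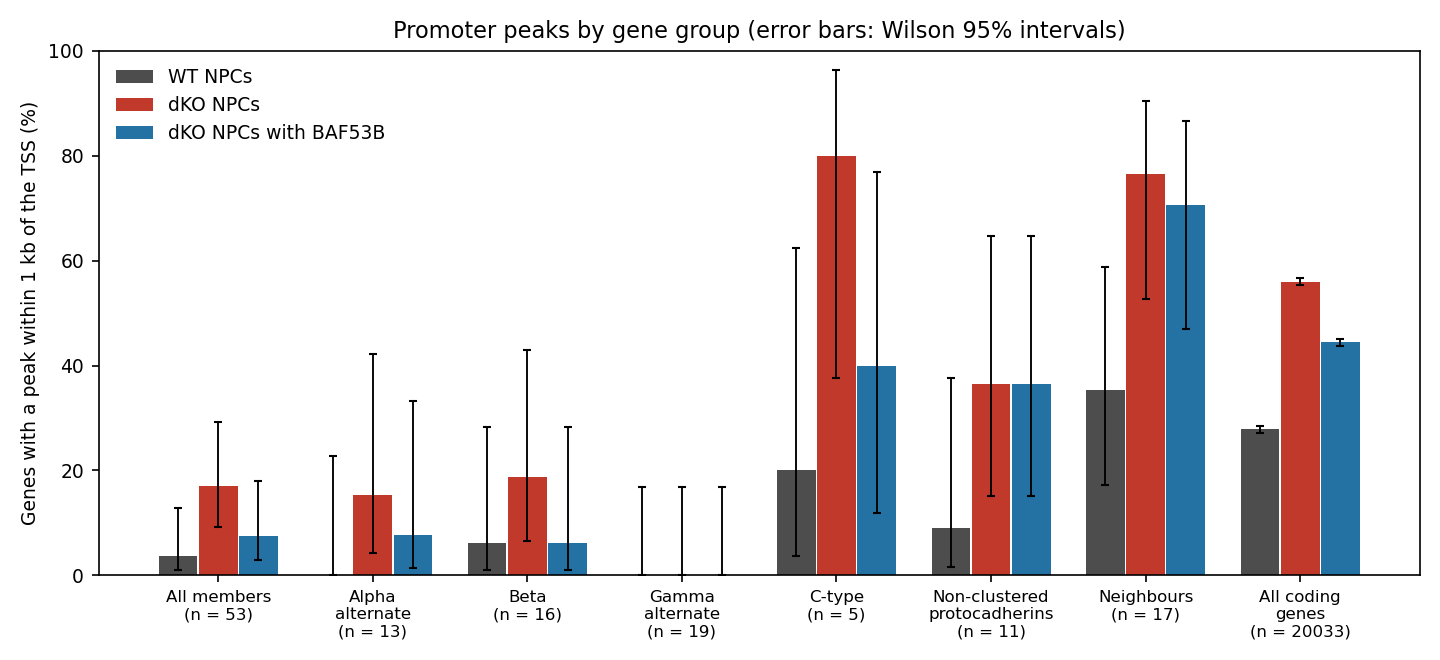
Share of genes with a peak within 1 kb of the TSS (%, vertical axis) by gene group, with dark bars for WT, red for dKO and blue for BAF53B, where bars give the share in 1 pooled list and error bars the Wilson 95% interval. All 53 members together lie at 3.77, 17 and 7.55%, below the 27.9, 56 and 44.5% of all coding genes, and the C-type members at 20, 80 and 40%.

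The C-type promoters had a higher share of peaks in dKO than the other members, at the full length of the lists. Of the 5 C-type members 1 had a peak in WT, 4 in dKO (80%, 37.6 to 96.4%) and 2 with BAF53B. Of the other 48 members 1 had a peak in WT (2.08%), 5 in dKO (10.4%, 4.53 to 22.2%) and 2 with BAF53B (4.17%). The intervals for dKO did not overlap between C-type and other members, and those for WT and BAF53B did. At equal list length 1 of 5 C-type members (20%, 3.62 to 62.4%) and 0 of 48 others (0 to 7.41%) had a peak in dKO, and these intervals overlapped. C-type promoters also differed in base composition. Their promoter windows had a median GC content of 60.7% (55.7 to 66%), alternate alpha windows 36%, beta windows 40.3%, alternate gamma windows 39.7% and all protein-coding genes 63.7%. A split of all genes at a GC content of 50% put the 5 C-type members on one side and the 48 others on the other. Among other protein-coding genes with a GC content up to 50% (3267 genes), 5.36% were called in the WT list, 13.3% in the dKO list and 10.4% in the BAF53B list. The values of the 48 members, 2.08, 10.4 and 4.17%, lay below these, with intervals that included them. Among other genes of higher GC content (16713 genes) the shares were 32.3, 64.5 and 51.2%, all inside the intervals of the 5 C-type members. The split was chosen after the values were seen, GC content was not matched within a class, and its part in the calls was not tested.

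In the alpha cluster the first of the C-type genes, PCDHAC1 (ENSG00000248383.5), had the highest promoter peak of all members in every list. Its summit pileup was 42 fragments in WT (30.3 to 56.8), 52 in dKO (38.8 to 68.2) and 45 with BAF53B (32.8 to 60.2). The 3 intervals overlapped, and each held the pileups of the other lists. The fold over local background was 5.18, 5.03 and 4.56, and the pileup over genome background 6.63, 7.63 and 6.64. The peak in dKO, chr5:140925990-140927355, had its summit 256 bases after the TSS, in the first exon and before the start codon. Even this peak was of ordinary height, since it exceeded 57.1, 45.9 and 49.1% of the promoter peaks of each list.

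The sequence under the dKO summit of PCDHAC1 is given because it is the strongest promoter site of the clusters, with a match to a CTCF core in capitals (AGNNGGCGC, searched on both strands). The match lies at chr5:140926617-140926625. A window of the same 201 bases around the summit held this core in 9.82% of WT peaks, 10.4% of dKO peaks and 9.37% of peaks with BAF53B.
PCDHAC1, chr5:140926455-140926655: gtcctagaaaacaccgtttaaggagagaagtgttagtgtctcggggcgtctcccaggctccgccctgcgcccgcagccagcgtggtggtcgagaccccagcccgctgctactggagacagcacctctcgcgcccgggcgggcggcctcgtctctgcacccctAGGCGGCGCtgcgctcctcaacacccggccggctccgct

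PCDHAC2 (ENSG00000243232.6), the other C-type alpha gene, had a peak in dKO only, with 38 fragments (26.9 to 52.2) and a fold of 3.13. Its local background was 11.46 fragments, higher than the 6.81 to 7.2 under the peaks of the alternate alpha genes in dKO. The peak was 1247 bases wide, at chr5:140966003-140967249, with its summit 63 bases after the TSS.

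Of the 13 alternate alpha genes none had a peak in WT, 2 had one in dKO and 1 with BAF53B. PCDHA2 (ENSG00000204969.7) had 31 fragments in dKO (21.1 to 44), a fold of 3.90, at chr5:140794769-140795114. PCDHA6 (ENSG00000081842.18) had 26 fragments in dKO (17 to 38.1), a fold of 3.46, at chr5:140827858-140828208. PCDHA12 (ENSG00000251664.5) had 28 fragments with BAF53B (18.6 to 40.5), a fold of 3.45, at chr5:140875254-140875603. All 3 were narrow, 346 to 351 bases, with summits 58 to 146 bases after the TSS and before the start codon. No alternate alpha promoter was called in more than 1 list. Their pileups lay 1 to 6 fragments above the smallest of any called peak in dKO and 2 above it with BAF53B. The other 10 genes, PCDHA1, PCDHA3, PCDHA4, PCDHA5, PCDHA7, PCDHA8, PCDHA9, PCDHA10, PCDHA11 and PCDHA13, had no promoter peak in any list.

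In the beta cluster PCDHB2 (ENSG00000112852.7) was the one gene with a promoter peak in all 3 lists. It had 27 fragments in WT (17.8 to 39.3), 37 in dKO (26.1 to 51) and 26 with BAF53B (17 to 38.1), with folds of 3.74, 4.36 and 3.47. The pileup in dKO was the highest, with overlapping intervals. Over genome background it was 4.26, 5.43 and 3.84. In dKO the peak lay at chr5:141094509-141095081, with its summit 77 bases after the TSS, in an exon of the gene. PCDHB5 (ENSG00000113209.9) had a peak in dKO only, of 28 fragments (18.6 to 40.5) and a fold of 3.71, at chr5:141135170-141135739. PCDHB15 (ENSG00000113248.6), the last beta gene, also had one in dKO only, of 28 fragments and a fold of 3.31, at chr5:141245240-141245782. No peak was called for the other 13 genes, PCDHB1, PCDHB3, PCDHB4, PCDHB6, PCDHB7, PCDHB8, PCDHB9, PCDHB10, PCDHB11, PCDHB12, PCDHB13, PCDHB14 and PCDHB16.

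In the gamma cluster peaks were found at C-type promoters and at no other site of the cluster. PCDHGC3 (ENSG00000240184.7) had 36 fragments in dKO (25.2 to 49.8), a fold of 3.63, at chr5:141475716-141476153. PCDHGC4 (ENSG00000242419.6) had 44 fragments in dKO (32 to 59.1) and 30 with BAF53B (20.2 to 42.8), with folds of 3.61 and 3.10 and overlapping intervals. In dKO its peak lay at chr5:141484529-141485171, with the summit 311 bases before the TSS, the only member summit in dKO more than 100 bases upstream. The third C-type gamma gene, PCDHGC5, had no peak in any list. All 19 alternate gamma genes also had none, and a count of 0 of 19 has an upper Wilson bound of 16.8%. They are PCDHGA1 to PCDHGA12 and PCDHGB1 to PCDHGB7.

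Relative to the elements shown above, summits in dKO lay downstream of the first base of the element at PCDHA2 (by 115 bases), PCDHA6 (146), PCDHB2 (136), PCDHB5 (122) and PCDHB15 (244). At PCDHGC3 the summit was 13 bases after the first base of the element, and at PCDHGC4 it was 247 bases upstream of it.

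**Figure D3:**
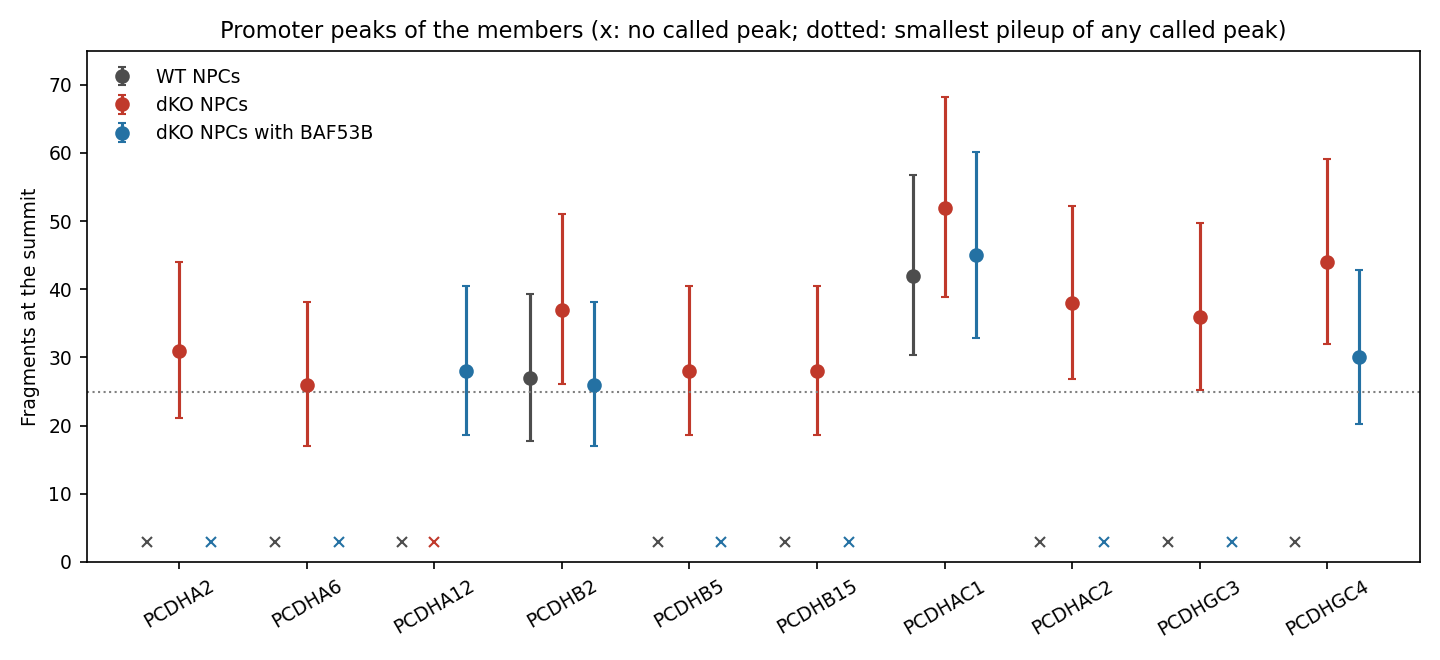
Fragments covering the summit (vertical axis) of the promoter peak of each of the 10 members with a peak in at least 1 list, where points are pooled lists, bars are exact Poisson 95% intervals, and crosses drawn near the axis mark lists without a called peak and stand for no value. Most pileups sit between 26 and 38 fragments, close to the dotted line at the smallest called pileup of 25, and PCDHAC1 and PCDHB2 are the members with a point in all 3 lists.

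By pileup the member peaks had lower medians than all promoter peaks in each list. The median pileup was 34.5 fragments over 2 peaks in WT, 36 over 9 in dKO and 29 over 4 with BAF53B, where all promoter peaks had medians of 39, 54 and 45. The median fold was 4.46, 3.63 and 3.46, against 4.03, 4.49 and 4.12, so by fold the members were higher in WT, where they had 2 peaks, and lower in the other lists. The median distance from a member's TSS to the nearest summit was 95.8, 29.3 and 53.1 kb for the WT, dKO and BAF53B lists, against 46.8, 0.4 and 7.4 kb over all genes.

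The clusters span 726.8 kb, and 34 separate regions were called in this span and 200 kb on either side. Of these, 10 were called in WT, 30 in dKO and 25 with BAF53B. All 10 regions of WT were called in the other 2 lists as well, 11 were shared by dKO and BAF53B without WT, 9 were found in dKO only and 4 with BAF53B only. Within the span, without the flanks, the WT list had 5.5 peaks per Mb, the dKO list 19.3 and the BAF53B list 12.4. The whole genome had 2.55, 8.24 and 5.49 per Mb. The span values rest on 4, 14 and 9 peaks, and 2 of the WT peaks lie in 1 region between alpha and beta. The span holds the promoters of all 53 members, and the densities were not adjusted for the number of genes. The flanks were denser, at 17.5, 40 and 42.5 per Mb. The gamma cluster held 0, 2 and 1 peaks, the alpha cluster 1, 6 and 4, and the beta cluster 1, 4 and 1.

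**Figure D4:**
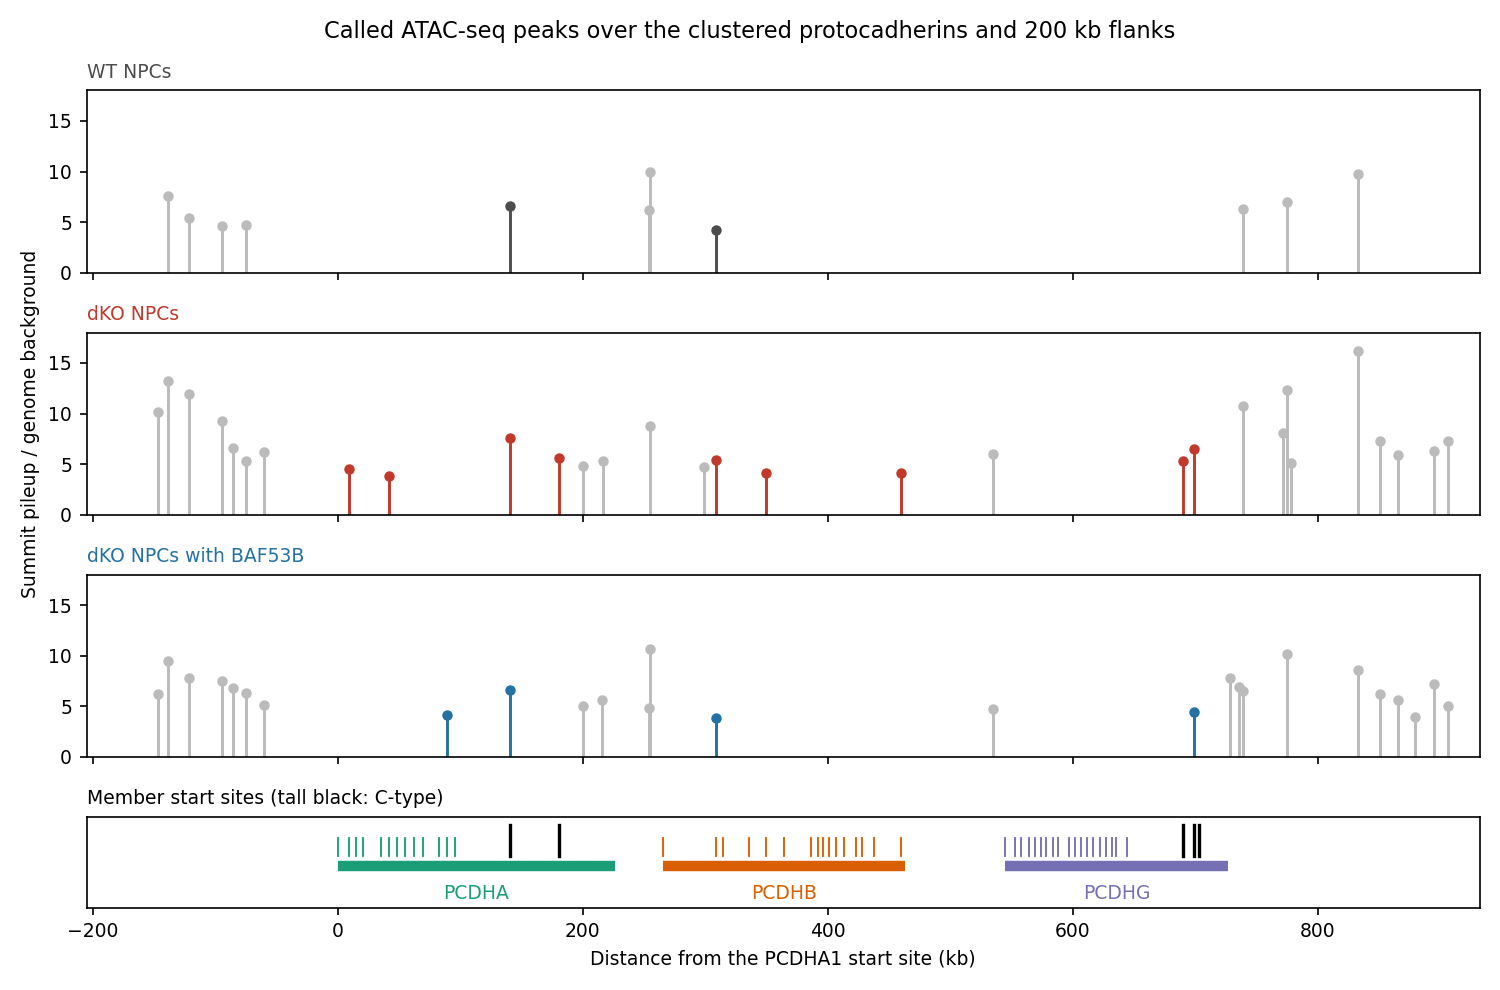
Called peaks along the clustered protocadherins and 200 kb on either side, with distance from the PCDHA1 TSS in kb on the horizontal axis and summit pileup over genome background on the vertical axis, 1 panel per pooled list, coloured where the region overlaps a member promoter and grey elsewhere. The lowest panel gives the extent of each cluster and the start site of each member, and the gamma cluster is without peaks up to its C-type promoters.

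The strongest site of the span lay at no promoter of a protein-coding gene. Between the alpha and beta clusters, the region chr5:141039994-141041430 had a summit pileup of 63 fragments in WT (48.4 to 80.6), 60 in dKO (45.8 to 77.2) and 72 with BAF53B (56.3 to 90.7). Its fold was 6.02, 5.56 and 6.03, and its pileup over genome background 9.95, 8.81 and 10.62. The 3 intervals overlapped. The summit was 28.9 kb after the end of the alpha cluster and 10.2 kb before the TSS of PCDHB1, outside any protein-coding gene. WT and BAF53B each had 2 peaks in this region and dKO had 1. An enhancer of the alpha cluster that holds a binding site of the repressor REST is known from the interval between alpha and beta, and its published coordinates were not matched here.

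The sequence around the summit of this region in the BAF53B list is given because it holds an element of the member promoters away from any protein-coding promoter. Capitals mark the alpha and gamma element (GNCGCTGT) at chr5:141041258-141041265 and, on the reverse strand, a stretch of the RE1 site that REST binds (TTCAGCACC) at chr5:141041276-141041284. Windows of the same length held the RE1 stretch in 0.266% of WT peaks, 0.586% of dKO peaks and 0.46% of BAF53B peaks, and the alpha and gamma element in 4.09, 4.03 and 3.92%. No member promoter window held the RE1 stretch, against 0.369% of all promoters.
Region between alpha and beta, chr5:141041123-141041323: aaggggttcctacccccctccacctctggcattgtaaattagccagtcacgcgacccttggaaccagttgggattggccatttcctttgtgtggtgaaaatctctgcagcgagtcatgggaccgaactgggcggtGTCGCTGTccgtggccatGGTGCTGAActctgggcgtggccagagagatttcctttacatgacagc

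Within the alpha cluster 2 further regions were called in dKO and with BAF53B and not in WT. Both lay in the intron after exon 3 of the 4 exons of PCDHAC2, among the constant exons that all alpha genes share. The first, chr5:140986034-140986646, had 33 fragments in dKO (22.7 to 46.3) and 34 with BAF53B (23.5 to 47.5). The second, chr5:141001346-141002547, had 36 (25.2 to 49.8) and 38 (26.9 to 52.2). In both regions the intervals of these lists overlapped, and each held the pileup of the other list. In the beta cluster 1 region away from member promoters, chr5:141084525-141084866, was called in dKO only, with 32 fragments (21.9 to 45.2), within the noncoding gene PCDHB1-AS1.

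Downstream of the gamma cluster 3 regions lay within 12 kb of its end. The nearest, chr5:141513616-141514424, was 1.1 kb after the end of the cluster and was called with BAF53B only, with 53 fragments (39.7 to 69.3). The next lay 8.5 kb after the end and was also called with BAF53B only, with 47 fragments (34.5 to 62.5). The third, chr5:141524585-141525196, lay 11.9 kb after the end, in an intron of DIAPH1, a formin gene that assembles actin filaments. It was called in all lists, with 40 fragments in WT (28.6 to 54.5), 73 in dKO (57.2 to 91.8) and 44 with BAF53B (32 to 59.1). The dKO interval did not overlap that of WT and overlapped that of BAF53B only from 57.2 to 59.1 fragments. Over genome background the log2 ratio from WT to dKO was 0.76, near the median of 0.71 over all shared WT peaks of the genome. Its summit window held a CTCF core and the beta element in overlapping letters on the reverse strand. The 2 patterns have letters in common, so this is 1 stretch that matches both. Windows of the same length held the beta element in 1.22% of WT peaks, 1.37% of dKO peaks and 1.23% of BAF53B peaks.

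The 10 regions called in every list allow the heights to be set side by side. From WT to dKO, the log2 ratio of pileup over genome background was 0.20 at PCDHAC1 and 0.35 at PCDHB2. At the 4 regions at promoters of neighbouring genes (NDUFA2 and IK, WDR55, HARS1 and HARS2, and DIAPH1) it ran from 0.72 to 1.15. At the 4 regions without a protein-coding TSS within 1 kb it ran from -0.18, in the region between alpha and beta, to 0.83. Noncoding genes were not used for this class, and 1 of its regions, chr5:140710741-140711602, had its summit within the noncoding gene VTRNA1-1. By the deposited fold the ratio was -0.04 at PCDHAC1, the other sign, and 0.22 at PCDHB2. It was then 0.46 to 0.93 at the neighbouring promoters and -0.11 to 0.62 at the regions without a protein-coding TSS. From WT to BAF53B the log2 ratio of pileup over genome background was 0.00 at PCDHAC1 and -0.15 at PCDHB2, and -0.19 to 0.72 at the neighbouring promoters. Both comparisons share the WT list. Over all 11 WT peaks of the span and flanks the median log2 ratio of the deposited fold, dKO over WT, was 0.53, against 0.44 over the 6255 WT peaks shared in the genome, and on the scale of pileup over genome background it was 0.72 against 0.71. For BAF53B over WT the median of the fold was 0.03, against 0.15, and for BAF53B over dKO, over 21 shared peaks, it was -0.15, against -0.20.

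**Figure D5:**
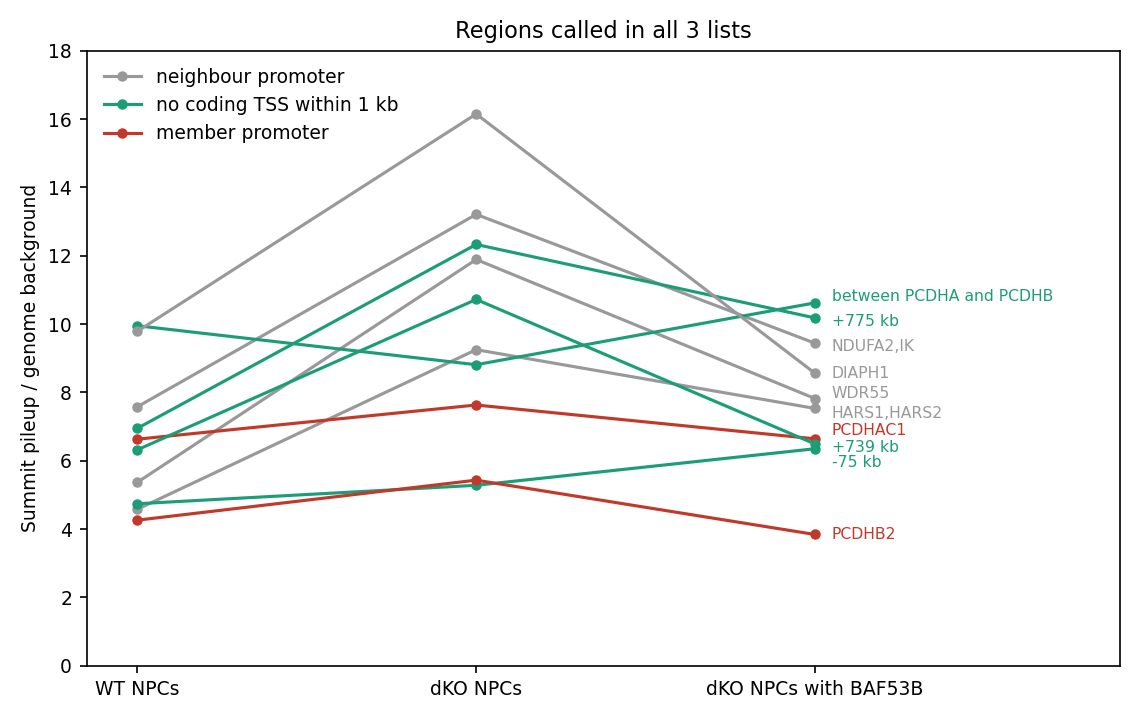
Summit pileup over genome background (vertical axis) in the 3 pooled lists for each region called in all of them, where lines join the values of 1 region and labels give the gene or the distance from the PCDHA1 TSS. The PCDHAC1 line runs from 6.63 to 7.63 to 6.64, the region between PCDHA and PCDHB is lowest in dKO at 8.81, and the neighbouring promoters are highest in dKO.

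Promoter peaks were more frequent at genes that lie among or beside the clusters than at the members. Of 17 other protein-coding genes with a TSS in the span or its flanks, 6 were called in the WT list (35.3%), 13 in the dKO list (76.5%) and 12 in the BAF53B list (70.6%). Of all protein-coding genes 27.9, 56 and 44.5% had a promoter peak in these lists. Among the 17 neighbouring genes the highest dKO folds were 8.23 at DIAPH1, 7.82 at the shared promoter of NDUFA2 and IK, 6.35 at WDR55 and 5.71 at TMCO6. TAF7, a subunit gene of the general transcription factor TFIID that lies between the beta and gamma clusters, had 41 fragments in dKO and 32 with BAF53B and no peak in WT. Of 11 protocadherins outside the clusters, 1 had a peak in WT (PCDH9), 4 in dKO and 4 with BAF53B. The highest of their folds in dKO were 5.11 at PCDH18, 4.90 at PCDH20, 4.69 at PCDH9 and 2.45 at PCDH1.

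Of 17 genes whose products are known to act on the clusters, 10 were called at the promoter in the WT list (58.8%), 16 in the dKO list (94.1%) and 13 in the BAF53B list (76.5%). Over all protein-coding genes the shares were 27.9, 56 and 44.5%. In dKO and not in WT 6 of the 17 had a peak (35.3%, 17.3 to 58.7%), near the 28.5% of all genes. The highest dKO folds were 7.85 at SMC1A, a cohesin subunit gene, 7.36 at SETDB1, a histone methyltransferase gene, 6.66 at the cohesin loader gene MAU2, 6.09 at STAG1 and 5.96 at WAPL. CTCF itself, which binds the promoters and enhancers, had 32, 72 and 48 fragments in WT, dKO and BAF53B. The cohesin subunit genes RAD21, SMC1A, SMC3 and STAG1 and the cohesin release factor WAPL had a peak in every list. SMCHD1, which represses the clusters, DNMT3A, which methylates DNA, and REST had none in WT and had one in each dKO list. DNMT3B, the methyltransferase known to act on alternate promoters, had a peak in dKO only, with a fold of 3.52 and 55 fragments. The same holds for the cohesin loader NIPBL and the cohesin subunit STAG2. WIZ, a zinc finger protein, had no promoter peak in any list.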

How the data were processed

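ATAC-seq of 6 samples (WT, dKO and dKO with BAF53B NPCs, 2 replicates each) was used. The authors trimmed reads with cutadapt 1.13, aligned them to hg38 with Bowtie2 2.2.5, removed duplicates with SAMtools 1.3.1 and Picard 1.90 and called peaks with MACS2. Its options, the Tn5 shift and how replicates were pooled are not given in the sources used here, and nothing says that replicates are separate cultures.

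Per the file layout, each deposited peak has a fold ratio (summit pileup over local background, each plus 1), a −log10 p-value and a −log10 q-value, which is at least 5 in every list. A deposited integer score is derived from the p-value and was not analysed. From the deposited fold and −log10 p the whole pileup and the background were solved for, which succeeded for 100% of peaks within a tolerance of 0.001 on −log10 p. Recovery of the pileup and the overlap of intervals were tested on simulated data, and the solved background was not scored there.

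The TSS was that of the Ensembl canonical transcript of GENCODE version 44. A promoter peak overlaps the TSS ± 1 kb by at least 1 bp. Regions are merged overlapping peaks of the 3 lists. Motifs were matched to hg38. Of the members 52 had an entry in the RefSeq promoter table, and 46 of these were identical to the window used. As alternatives, equal list lengths, a −log10 q limit of 10, windows of 500 bp and 3 kb, summits, other TSS definitions, no flank, pileup over genome background and reciprocal overlap of 50% were tried. Every member is named, with values for each that has a promoter peak, and genes outside the clusters are named from lists, with up to 5 by highest dKO fold. The members and lists were chosen with earlier results of these data known, and the 2 elements, the split by GC content, the share over genes with a dKO peak and the genes named beyond that rule (SOX1, SOX2, NES, TAF7, HARS1, HARS2, the regulators, and KDM6A, KDM6B and ACTL6B) after their values were seen. Scripts ran in Python 3.11.15 with scipy 1.17.1, numpy 2.4.6, pandas 2.3.3 and matplotlib 3.10.9.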

Additional observations from a re-analysis of the deposited data

How the results depend on the processing

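Of 60 alternative values, 38 stayed within their tolerance and 22 moved. Most of them were counts, which cannot change sign. The median log2 ratios of dKO over WT and of BAF53B over dKO kept their sign. The members with a promoter peak were the same in each list with windows of 500 bp or 3 kb, by summits, and with other TSS definitions. At a −log10 q of at least 10 the members with a peak were 1 in WT (PCDHAC1), 3 in dKO (PCDHAC1, PCDHB2 and PCDHGC4) and 1 with BAF53B, where 14.2, 42.2 and 28.7% of all genes had one. There were 2 in dKO and not WT, 2 in dKO and not BAF53B and 0 in BAF53B and not WT, against 28.2, 15.2 and 15.5% of all genes. At equal list lengths there were 1 in dKO and 1 with BAF53B, and 0 in each of the last 3 classes, against 9.39, 7.43 and 8.02% of all genes. Peaks in the span and flanks, 11, 30 and 26 in WT, dKO and BAF53B, came to 5, 16 and 15 at the stricter −log10 q, to 11 in dKO and 15 with BAF53B at equal lengths, and to 4, 14 and 9 without flanks. The median log2 ratio over shared peaks was 0.72 for dKO over WT by pileup over genome background in place of 0.53 by fold (0.71 and 0.44 over the genome). For BAF53B over dKO it was -0.28 by pileup and -0.28 at the stricter −log10 q, in place of -0.15 (-0.36, -0.24 and -0.20 over the genome). A stricter limit, a shorter list and a smaller span each leave fewer peaks by construction. No paired analysis was possible because both replicates of a group share 1 list, and no replicate could be left out for the same reason. Weak peaks decide most of the member counts, since most member pileups lie near the smallest called pileup.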

Other observations

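The clusters also hold 6 pseudogenes, PCDHA14, PCDHB17P, PCDHB18P, PCDHB19P, PCDHGB8P and PCDHGB9P, and none had a peak within 1 kb of its start in any list.

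The members resemble each other in sequence, and reads from identical stretches cannot be placed. Within 1 kb of the TSS, the share of 50-base stretches that recur elsewhere in the span and flanks had a median of 4.9% over the alpha genes and 0.0% over the beta and gamma genes. It was above 10% for 4 genes in each cluster and highest, at 38.7%, for PCDHB8 and PCDHB13. Of the 12 genes above 10%, PCDHA6 (12.3%) was the one with a promoter peak. Whether the authors kept reads with several matches is not given in the sources used here, and its part in the calls was not tested.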
